A study of Mus musculus with 12 samples.

Results

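The antiviral restriction factors described here were 10 mouse genes that interferon is known to induce, chosen by gene symbol out of the 56748 genes in the count table: Ifitm1, Ifitm2, Ifitm3, Ifitm6, Bst2, Rsad2, Mx1, Mx2, Samhd1 and Isg20. Their RNA was measured by bulk RNA sequencing in bone marrow-derived macrophages (BMDM) of wild-type C57BL/6J mice, with 4 conditions and 3 libraries per condition. All BMDM were grown with 20 ng/mL M-CSF, polarized toward an M2-like phenotype with 10 ng/mL IL4 over 48 hours and then left untreated or treated for 72 hours. The treatments were eGFP supernatant, Ifnb1eGFP supernatant and recombinant IFNβ (rIFNβ). Both supernatants came from YUMM5.2 mouse melanoma cells transduced with a doxycycline (Dox)-inducible construct and exposed to 1 µg/mL Dox for 72 hours, the construct encoding eGFP alone or Ifnb1 with eGFP. By ELISA, the Ifnb1eGFP supernatant held 1500 pg/mL IFNβ once diluted, rIFNβ was added at the same concentration, and the eGFP supernatant was diluted at the ratio of the Ifnb1eGFP supernatant. The supernatants therefore carried tumor cell products and Dox residues that untreated and rIFNβ-treated BMDM did not receive, and each came from a transduced line of 1 melanoma model. The study's methods describe its C57BL/6J animals as female mice bought as young adults, without an age for the bone marrow donors. Neither the labels nor the methods state whether the 3 libraries of a condition came from separate mice or cultures, so the p-values measure the spread between these libraries, which may be technical.

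Restriction factors are host proteins that block single steps of a viral life cycle, and many of them belong to the interferon-stimulated genes. IFNβ binds the type I interferon receptor, whose kinases activate STAT2. In complex with IRF9, it reaches interferon-stimulated response elements in promoters, and the induced IRF7 sustains the response. IFITM proteins sit in cell and endosomal membranes and hinder fusion of enveloped viruses, Bst2 (tetherin) holds budding particles at the cell surface, and Rsad2 (viperin) makes a modified nucleotide that stops viral polymerases. Mx1 and Mx2 are dynamin-like GTPases that bind viral nucleoprotein complexes, Samhd1 degrades the deoxynucleotides needed for reverse transcription, and Isg20 is an exonuclease that degrades RNA. C57BL/6 and most other laboratory strains carry disrupted Mx1 and Mx2 alleles, so the RNA levels of these genes are not levels of a working protein.

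The libraries held 31526034 to 45348457 counts, and all 10 genes passed the filter on low counts that left 15033 genes to test. Adgre1 (1484 to 1836 CPM), Csf1r (1023 to 1189 CPM) and Cd68 (1172 to 1868 CPM), which mark macrophages, were abundant in every library, as was Mertk at 102 to 178 CPM, where CPM is the expected count per 1000000 counts of the normalized library total. Of the other 3 macrophage markers of the list, Itgam (317 to 426 CPM with IFNβ against 1424 to 1627 without) and Lyz2 (3441 to 4322 against 8807 to 12828) were lower with IFNβ, and Fcgr1 (1111 to 1294 against 48.8 to 112) was higher. The summed level of the 7 markers was 14121 to 15262 CPM in the untreated libraries, 17928 to 18457 CPM with eGFP supernatant, 10286 to 10581 CPM with Ifnb1eGFP supernatant and 9648 to 9821 CPM with rIFNβ. Among 5 markers of an M2-like phenotype, Mrc1 stood at 609 to 839 CPM and Retnla at 45.4 to 71.3 CPM, whereas Arg1 stayed at 0.208 to 0.877 CPM. Cd163 was lower with IFNβ (1.59 to 2.28 against 5.09 to 6.59 CPM) and Chil3 higher (106 to 129 against 63.2 to 81.5 CPM). Of 27 markers of other cell types, 22 remained under 1 CPM in every library, and 8 of them, among them Ly6g, Cd3e and Siglech, were at 0 in at least 9 of the 12 libraries. The summed level of the 27 markers was 25.03 to 46.0 CPM in the untreated libraries, 23.2 to 41.3 CPM with eGFP supernatant, 34.04 to 55.4 CPM with Ifnb1eGFP supernatant and 32.8 to 45.3 CPM with rIFNβ. Within it, the stromal genes Dcn (18.8 to 39.7 against 4.74 to 12.5 CPM) and Pdgfra (3.53 to 7.41 against 0.877 to 3.24 CPM) were higher with IFNβ. The stromal gene Col1a1 (6.68 to 9.51 against 10.6 to 22.6 CPM) and the granulocyte gene S100a8 (0.089 to 0.531 against 4.19 to 5.72 CPM) were lower. The stromal genes together averaged 29.0 CPM in untreated BMDM, 27.4 with eGFP supernatant, 44.5 with Ifnb1eGFP supernatant and 38.8 with rIFNβ. The part of these markers in the results on restriction factors was not tested, and in bulk RNA fewer cells of a type and less RNA per cell cannot be told apart.

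The second eGFP library stood apart from the other 5 libraries without IFNβ. For each of 12 interferon-stimulated genes written down as markers of exposure it held the highest level of these 6 libraries, and their sum was 818 CPM in it against at most 230 CPM in any other library without IFNβ and 10075 to 11066 CPM in the 6 libraries with IFNβ. Irf7, which is in that list, stood at 45.2 CPM in this library, 5.25 to 11.3 CPM in the other 5 libraries without IFNβ and 1333 to 1904 CPM with IFNβ. For Rsad2, Mx1, Mx2 and Isg20, the change with Ifnb1eGFP against eGFP supernatant is given with and without it. Other values of the eGFP group include it unless stated.

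Promoter sequences are shown for the 4 genes whose window held the core of the interferon-stimulated response element, to which the complex with STAT2 and IRF9 binds. The windows, taken from RefSeq on GRCm38.p6, run from 250 bases before the transcription start to 50 bases after it, 5′ to 3′ along the gene. Capitals mark each match to the core searched for, which reads GAAA, any 2 bases and GAAA again. All 4 genes lie on the minus strand, with the windows of Ifitm2 at chr7:140955912-140956211, Ifitm3 at chr7:141010695-141010994, Bst2 at chr8:71537423-71537722 and Rsad2 at chr12:26456403-26456702.
Ifitm2: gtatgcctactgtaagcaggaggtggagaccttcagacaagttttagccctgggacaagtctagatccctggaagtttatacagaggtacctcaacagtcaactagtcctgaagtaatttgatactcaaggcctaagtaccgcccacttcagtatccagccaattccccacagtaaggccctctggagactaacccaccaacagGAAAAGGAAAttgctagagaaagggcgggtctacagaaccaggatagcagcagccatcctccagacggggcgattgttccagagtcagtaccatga
Ifitm3: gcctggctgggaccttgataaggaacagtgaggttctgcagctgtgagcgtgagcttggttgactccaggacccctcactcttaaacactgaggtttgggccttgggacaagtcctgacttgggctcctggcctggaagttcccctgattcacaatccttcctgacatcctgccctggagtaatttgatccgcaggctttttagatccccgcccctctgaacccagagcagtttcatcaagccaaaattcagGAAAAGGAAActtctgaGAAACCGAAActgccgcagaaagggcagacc
Bst2: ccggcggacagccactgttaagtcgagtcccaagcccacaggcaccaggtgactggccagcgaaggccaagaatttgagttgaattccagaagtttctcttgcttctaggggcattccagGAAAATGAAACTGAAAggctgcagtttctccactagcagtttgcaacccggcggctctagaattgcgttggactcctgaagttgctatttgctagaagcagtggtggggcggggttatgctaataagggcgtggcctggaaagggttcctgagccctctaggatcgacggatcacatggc
Rsad2: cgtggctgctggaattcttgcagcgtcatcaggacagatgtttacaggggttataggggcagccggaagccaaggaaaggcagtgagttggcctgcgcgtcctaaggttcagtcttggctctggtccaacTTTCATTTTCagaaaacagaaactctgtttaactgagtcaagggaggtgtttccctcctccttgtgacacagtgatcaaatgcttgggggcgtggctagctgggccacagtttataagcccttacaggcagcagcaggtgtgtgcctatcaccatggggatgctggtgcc
Counting the first transcribed base as 1, the match of Ifitm2 began at -46, and Ifitm3 had a pair of matches after the start, beginning at 3 and 20. In Bst2 a pair of overlapping matches began at -130 and -124. The match of Rsad2 began at -120 and lay on the opposite strand. Searched on both strands, the element was found in 4 of the 10 windows that 8 of the 10 genes had in the table (40%), Isg20 having 3 windows and Mx1 and Mx2 none. It was found in 23.3% of the 43 windows of the other antiviral effectors described further on, and in 3.44% of the 32851 windows searched. These were windows of full length and did not cover every chromosome. A match of letters is a description and not a binding site.

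All 10 restriction factors were higher with IFNβ from either source. For Ifitm1, which had few reads, the call against eGFP supernatant was lost when some single libraries were left out, as described below. With Ifnb1eGFP against eGFP supernatant, all 10 genes were called higher, with adjusted p no larger than 0.05, in edgeR's quasi-likelihood test (Benjamini-Hochberg adjustment across every gene tested), where 30.1% of all genes tested were higher. With rIFNβ against untreated control, again all 10 were higher, where 30.7% of all genes were. At the stricter call, which asks for a log2 fold change of 2 or more with adjusted p no larger than 0.01, 7 of the 10 were higher in each comparison, against 2.77% and 2.99% of all genes, and Ifitm1, Ifitm2 and Samhd1 were the exceptions. The median log2 fold change of the 10 genes was 3.34 with Ifnb1eGFP supernatant and 3.96 with rIFNβ, where the median of all genes tested was 0.028 and 0.044. In both comparisons the 3 treated libraries lay above the 3 control libraries for all 10 genes, which held for 32.4% and 36.4% of all genes. Taking all 6 libraries with IFNβ against all 6 without it, 9 of the 10 genes did not overlap, Ifitm1 being the exception, where 25.5% of all genes lay wholly above. An exact permutation test of 3 libraries against 3 cannot give a p under 0.1, so no such test is reported.

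**Figure D1:**
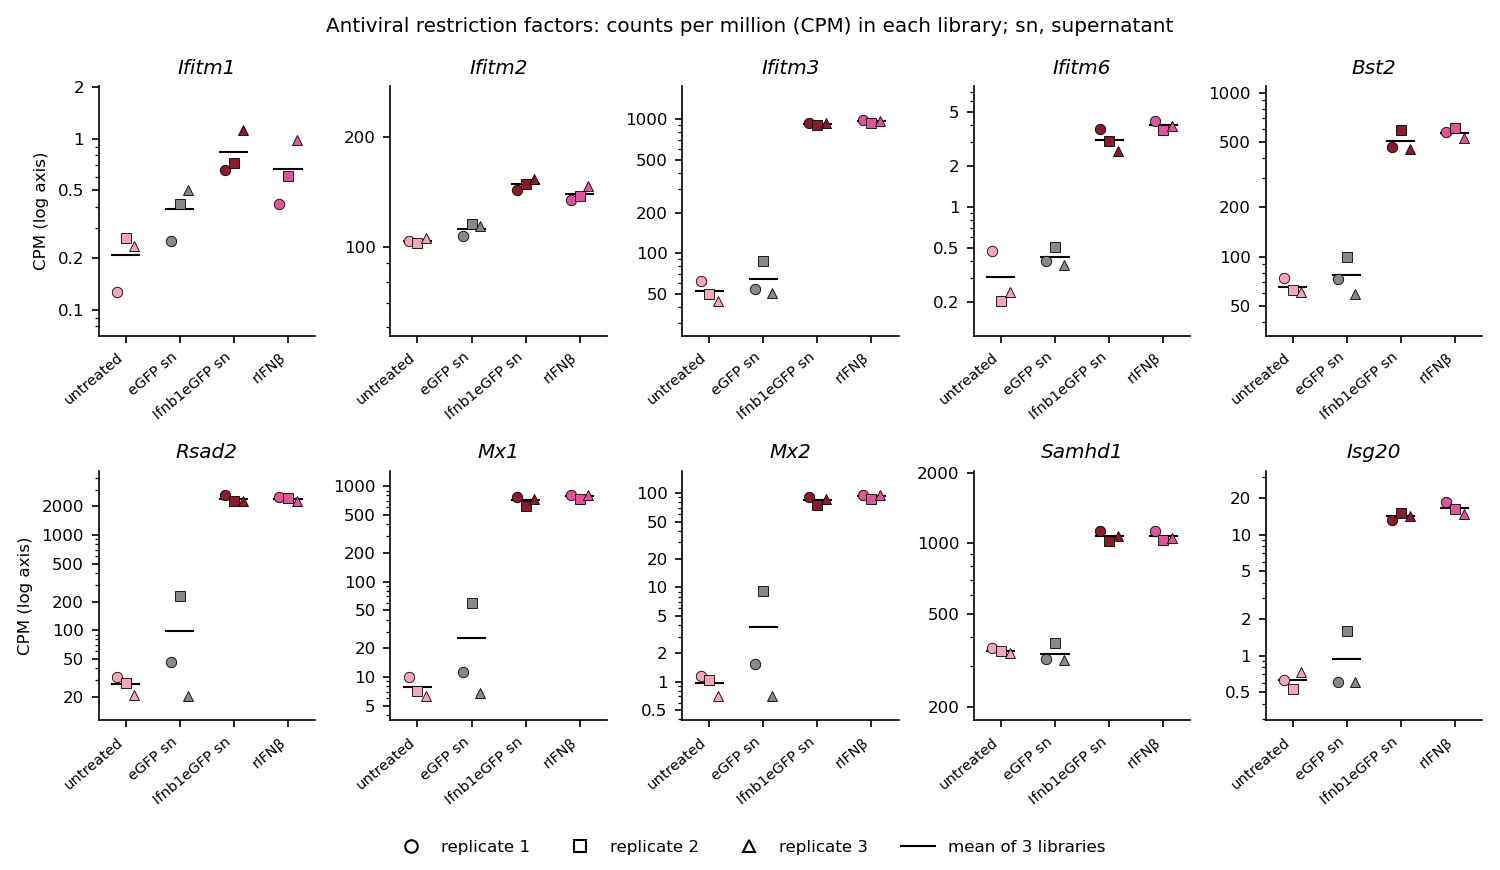
CPM on a log axis for the 10 genes in each of the 12 libraries, grouped by condition on the horizontal axis; symbols stand for the replicate number and lines for the mean of 3 libraries. The libraries with IFNβ lie above those without it for every gene but Ifitm1, whose rIFNβ and eGFP groups overlap, and the second eGFP library (square) stands above its group for Rsad2, Mx1, Mx2 and Isg20.

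**Figure D2:**
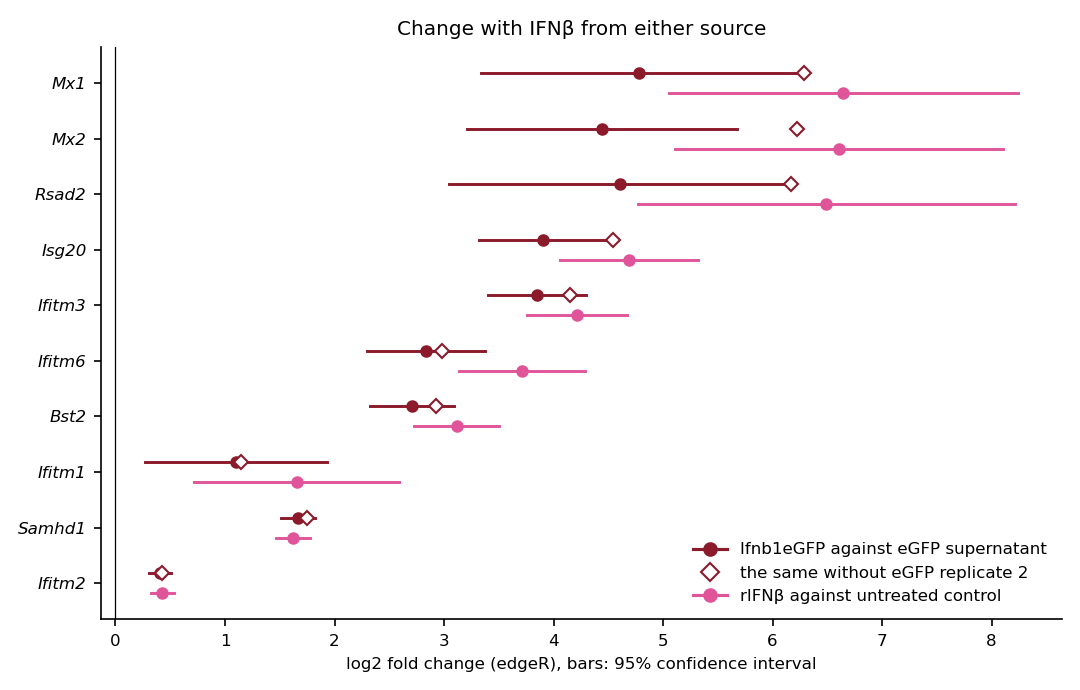
Log2 fold changes of the 10 genes on the horizontal axis, with 95% confidence intervals as bars, for Ifnb1eGFP against eGFP supernatant (dark red) and rIFNβ against untreated control (pink); open diamonds show the first comparison without the second eGFP library. Mx1, Mx2 and Rsad2 have the largest values and the widest intervals, and Ifitm2 has the smallest value in both comparisons.

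Ifitm3, the family member best known for holding influenza virus in endosomes, had the largest change among the IFITM genes. It stood at 62.2, 49.8 and 43.7 CPM in untreated BMDM, 54.3, 88.0 and 50.1 with eGFP supernatant, 931, 903 and 942 with Ifnb1eGFP supernatant and 985, 935 and 973 with rIFNβ. The libraries with and without IFNβ were far apart, and the second eGFP library was the highest of those without IFNβ. Ifitm3 was 14.4-fold higher with Ifnb1eGFP than with eGFP supernatant (95% interval 10.6 to 19.7, edgeR adjusted p = 3.2e-08), a log2 fold change of 3.85 with an SE of 0.20. With rIFNβ it was 18.6-fold higher than in untreated control (log2 fold change 4.22, SE 0.21, edgeR adjusted p = 1.6e-08).

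Ifitm2, the close relative of Ifitm3, had the smallest log2 fold change of the 10 genes in both comparisons. Its levels were 104, 102 and 105 CPM in untreated BMDM, 107, 115 and 114 with eGFP supernatant, 143, 148 and 154 with Ifnb1eGFP supernatant and 134, 137 and 147 with rIFNβ. The 4 groups kept within 1.52 to 6.83 CPM (SD, n = 3), and every library with IFNβ exceeded every library without it. The rise was 1.33-fold with Ifnb1eGFP against eGFP supernatant (log2 fold change 0.41, 95% interval 0.30 to 0.51, edgeR adjusted p = 2.0e-05) and 1.35-fold with rIFNβ against untreated control (log2 fold change 0.43, edgeR adjusted p = 1.3e-05). Its expected counts were not whole in 11 of 12 libraries, so part of its reads were shared with other genes by the counting, and it overlaps Gm45717 on the same strand.

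Ifitm6, a member expressed in cells of the myeloid lineage, was low but clearly separated. It stood at 0.477, 0.205 and 0.237 CPM in untreated BMDM, 0.404, 0.512 and 0.376 with eGFP supernatant, 3.72, 3.03 and 2.56 with Ifnb1eGFP supernatant and 4.27, 3.69 and 3.94 with rIFNβ. The lowest library with IFNβ lay above the highest library without it, and the rIFNβ and Ifnb1eGFP libraries overlapped. It was 7.14-fold higher with Ifnb1eGFP than with eGFP supernatant (log2 fold change 2.84, SE 0.24, edgeR adjusted p = 1.8e-06) and 13.1-fold higher with rIFNβ than in untreated control (log2 fold change 3.71, SE 0.26, edgeR adjusted p = 3.0e-07).

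Ifitm1, which acts mostly at the cell surface, rested on few reads: 4 to 10 expected counts in the untreated libraries, 10 to 20 with eGFP supernatant, 25.9 to 52 with Ifnb1eGFP supernatant and 14 to 39 with rIFNβ. In CPM it stood at 0.127, 0.263 and 0.237 in untreated BMDM, 0.253, 0.414 and 0.502 with eGFP supernatant, 0.657, 0.720 and 1.13 with Ifnb1eGFP supernatant and 0.415, 0.607 and 0.985 with rIFNβ. Each IFNβ group lay above its own control group, but the rIFNβ and eGFP supernatant groups overlapped. The log2 fold change was 1.10 (95% interval 0.27 to 1.93, edgeR adjusted p = 0.028) with Ifnb1eGFP against eGFP supernatant and 1.65 (95% interval 0.72 to 2.59, edgeR adjusted p = 0.0061) with rIFNβ against untreated control. The first of these calls was lost without eGFP replicate 1 (log2 fold change 0.87, edgeR adjusted p = 0.101), without eGFP replicate 2 (1.15, edgeR adjusted p = 0.0597) and without Ifnb1eGFP replicate 3 (0.82, edgeR adjusted p = 0.125).

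The 4 IFITM members lie in 1 cluster on mouse chromosome 7 (GRCm39, GENCODE M39), yet their changes differed widely. Ifitm2 (chr7:140534738-140536228, minus strand) is followed after 10087 bases by Ifitm1 (chr7:140546316-140549743, plus strand), after a further 39755 bases by Ifitm3 (chr7:140589499-140591282, minus strand) and after 4329 bases by Ifitm6 (chr7:140595612-140597837, minus strand). Ifitm5, a bone-related relative, lies 2639 bases before Ifitm2 and closes the 68967-base span. It stood at 0.0237 to 0.176 CPM without IFNβ and 0.0675 to 0.323 CPM with it, which did not pass the filter and was not tested. Ifitm7 on chromosome 16 reached at most 0.0954 CPM without IFNβ and was at 0 in all 6 libraries with it, and Ifitm10 stood at 0.0753 to 0.286 CPM over all 12 libraries. Ifitm2 was thus the most abundant IFITM gene per length without IFNβ, and Ifitm3 with it.

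**Figure D3:**
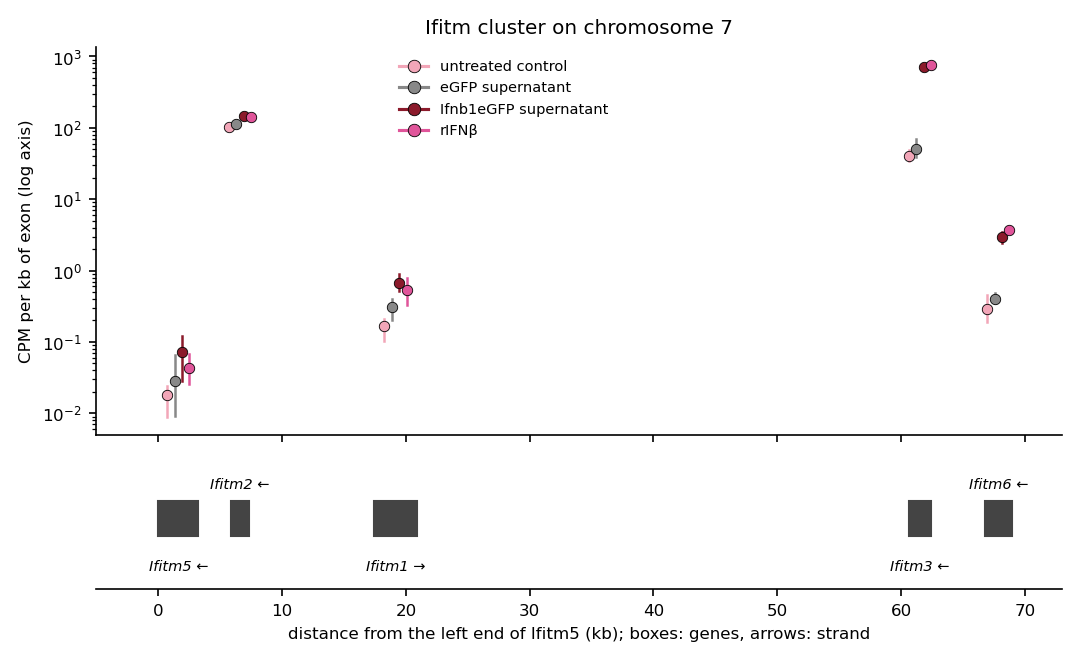
The Ifitm cluster on mouse chromosome 7, drawn to scale as distance from the left end of Ifitm5 in kb, with CPM per kb of exon on a log axis above each gene; points are means of 3 libraries and bars run from the lowest to the highest library. Ifitm3 rises from 40.5 to 723 and 753 CPM per kb with IFNβ, whereas Ifitm2 lies between 104 and 149 CPM per kb in all 4 conditions.

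Bst2 (chr8:71986895-71990114, minus strand), also called tetherin, rose in both comparisons. It stood at 73.9, 62.8 and 60.7 CPM in untreated BMDM, 73.01, 99.3 and 59.5 with eGFP supernatant, 469.5, 589 and 456 with Ifnb1eGFP supernatant and 573, 609.7 and 526 with rIFNβ. All 6 libraries with IFNβ were above all 6 without it, and the IFNβ groups overlapped each other. Bst2 was 6.53-fold higher with Ifnb1eGFP than with eGFP supernatant (log2 fold change 2.71, SE 0.17, edgeR adjusted p = 1.6e-07) and 8.66-fold higher with rIFNβ than in untreated control (log2 fold change 3.11, SE 0.18, edgeR adjusted p = 5.2e-08).

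Rsad2 (chr12:26492745-26506451, minus strand), the viperin gene, rose strongly with both sources of IFNβ. Its levels were 31.9, 28.1 and 20.7 CPM in untreated BMDM, 46.4, 228 and 20.3 with eGFP supernatant, 2638, 2281 and 2260.4 with Ifnb1eGFP supernatant and 2525, 2428 and 2297 with rIFNβ. The IFNβ groups overlapped each other and lay far above all other libraries, and within the eGFP group replicate 2 stood alone. Rsad2 was 24.4-fold higher with Ifnb1eGFP than with eGFP supernatant (95% interval 8.25 to 72.1, log2 fold change 4.61, SE 0.71, edgeR adjusted p = 0.00019), and 71.7-fold higher when eGFP replicate 2 was left out. Against untreated control, rIFNβ raised it 89.9-fold (95% interval 27.3 to 296, log2 fold change 6.49, SE 0.78, edgeR adjusted p = 2.6e-05).

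The neighbour of Rsad2 on the opposite strand, Cmpk2, lies 12751 bases away and encodes a kinase that supplies the nucleotide viperin uses. Cmpk2 stood at 12.5, 11.8 and 8.09 CPM in untreated BMDM, 20.8, 104 and 7.10 with eGFP supernatant, 1516, 1292 and 1269.6 with Ifnb1eGFP supernatant and 1636, 1499 and 1419 with rIFNβ. It was high in the same libraries as Rsad2, eGFP replicate 2 included. Its log2 fold change was 4.95 with Ifnb1eGFP against eGFP supernatant (edgeR adjusted p = 0.00018) and 7.14 with rIFNβ against untreated control (edgeR adjusted p = 2.3e-05).

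Mx1 (chr16:97248235-97264107, minus strand) and Mx2 (chr16:97336508-97362100, plus strand) are neighbours separated by 72400 bases, and had the largest fold changes of the 10 genes with rIFNβ. In mice Mx1 is the nuclear and Mx2 the cytoplasmic form. Mx1 stood at 10.0, 7.14 and 6.34 CPM in untreated BMDM, 11.3, 59.3 and 6.88 with eGFP supernatant, 772, 626 and 733 with Ifnb1eGFP supernatant and 805, 733 and 806 with rIFNβ. Mx2 stood at 1.14, 1.05 and 0.710 CPM in untreated BMDM, 1.54, 9.24 and 0.703 with eGFP supernatant, 89.9, 75.2 and 86.2 with Ifnb1eGFP supernatant and 95.3, 87.5 and 95.9 with rIFNβ. Both genes showed the same layout, with the IFNβ groups overlapping each other, no overlap with the libraries without IFNβ, and eGFP replicate 2 above the rest of these. Mx1 was 27.5-fold higher with Ifnb1eGFP than with eGFP supernatant (95% interval 10.1 to 74.5, edgeR adjusted p = 7.5e-05), and 78.2-fold without eGFP replicate 2. For Mx2 the same comparison gave 21.7-fold (log2 fold change 4.44, SE 0.56, edgeR adjusted p = 4.0e-05), and 74.5-fold without that library. Against untreated control, rIFNβ raised Mx1 by 100.2-fold (95% interval 33.1 to 303, edgeR adjusted p = 1.2e-05) and Mx2 by 97.4-fold (edgeR adjusted p = 7.2e-06), ranks 55 and 56 from the top of all genes tested by log2 fold change. The intervals of Mx1 and Rsad2 with rIFNβ also include the spread of eGFP replicate 2, because all conditions share the fit.

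The split between Mx1 and Mx2 is uncertain, because reads that fit both genes were divided between them by the counting. In all 12 libraries the expected counts of Mx1 and Mx2 summed to a whole number within 0.03, while each gene alone was not whole in 11 libraries. Mx2 amounted to between 10.4% and 15.6% of the Mx1 counts, with 11.6% to 12.01% in the 6 libraries with IFNβ.

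Samhd1 (chr2:156939453-156977187, minus strand) was well expressed without IFNβ and had a moderate, tightly measured rise. It stood at 359, 348 and 340.4 CPM in untreated BMDM, 321, 377 and 317 with eGFP supernatant, 1131, 1024 and 1070.4 with Ifnb1eGFP supernatant and 1123, 1037 and 1057 with rIFNβ. The untreated and eGFP groups overlapped, as did the IFNβ groups, with a wide gap between. The rise was 3.18-fold with Ifnb1eGFP against eGFP supernatant (log2 fold change 1.67, SE 0.07, edgeR adjusted p = 5.4e-09) and 3.07-fold with rIFNβ against untreated control (log2 fold change 1.62, SE 0.07, edgeR adjusted p = 5.7e-09). These were the smallest adjusted p-values among the 10 genes.

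Isg20 (chr7:78562598-78570153, plus strand), the exonuclease, was low in every condition but rose strongly. It stood at 0.636, 0.527 and 0.733 CPM in untreated BMDM, 0.606, 1.61 and 0.602 with eGFP supernatant, 13.1, 14.97 and 14.4 with Ifnb1eGFP supernatant and 18.7, 16.2 and 14.7 with rIFNβ. Groups with and without IFNβ did not overlap, and eGFP replicate 2 was above the other 5 libraries without IFNβ. Isg20 was 14.97-fold higher with Ifnb1eGFP than with eGFP supernatant (log2 fold change 3.90, SE 0.27, edgeR adjusted p = 2.7e-07), 23.3-fold without eGFP replicate 2, and 25.8-fold higher with rIFNβ than in untreated control (log2 fold change 4.69, SE 0.29, edgeR adjusted p = 9.5e-08).

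Levels of different genes were ordered per kb of exon, on which scale IFNβ changed the order. In untreated BMDM, Ifitm2 led with 104 ± 1.52 CPM per kb (SD, n = 3), followed by Bst2 with 54.2 ± 5.85 and by Ifitm3 with 40.5 ± 7.38 and Samhd1 with 38.2 ± 1.02, which overlapped each other. Rsad2 followed with 6.21 ± 1.32 and Mx1 with 2.33 ± 0.578 CPM per kb. Ifitm6, Mx2, Isg20 and Ifitm1 came last, at 0.167 to 0.289 CPM per kb on average, with overlapping neighbours. With Ifnb1eGFP supernatant the order was Ifitm3 (723 ± 16.02 CPM per kb), Rsad2 (552 ± 49.0), Bst2 (416 ± 60.3), Mx1 (211 ± 22.4), Ifitm2 (149 ± 5.23), Samhd1 (117 ± 5.86), Mx2 (23.2 ± 2.12), Isg20 (5.54 ± 0.364), Ifitm6 (2.93 ± 0.548) and Ifitm1 (0.668 ± 0.205), and no neighbours in it overlapped. The order with rIFNβ was the same, again without overlap, with Ifitm3 at 753 ± 20.2 and Ifitm1 at 0.535 ± 0.232 CPM per kb.

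The make-up of the summed restriction factor RNA shifted accordingly. Summed CPM of the 10 genes was 607 ± 32.6 in untreated BMDM, 721 ± 224 with eGFP supernatant, 5859 ± 290.1 with Ifnb1eGFP supernatant and 6058 ± 182 with rIFNβ (SD, n = 3). Of the sum per kb, Ifitm2 made up 42.3% in untreated BMDM but 6.76% and 6.07% with Ifnb1eGFP supernatant and rIFNβ. From untreated BMDM, the share of Rsad2 went from 2.51% to 25.1% and 24.2%, that of Ifitm3 from 16.4% to 32.9% and 32.7%, and that of Mx1 from 0.938% to 9.58% and 10.1%. Bst2 kept a similar share, with 22.0% in untreated BMDM and 18.9% and 20.4% with IFNβ. With eGFP supernatant the shares averaged 39.3% for Ifitm2, 6.60% for Rsad2 (1.92% to 13.8%), 16.8% for Ifitm3, 2.25% for Mx1 and 21.5% for Bst2.

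Comparing eGFP supernatant with untreated control asks whether tumor cell supernatant and Dox without IFNβ transgene expression moved these genes. None of the 10 was called by edgeR's quasi-likelihood test after adjustment, where 0.299% of all genes tested were called. At an unadjusted p under 0.05 there were 4 of 10, against 8% of all genes: Rsad2 (log2 fold change 1.87, 95% interval 0.45 to 3.29, adjusted p = 0.398), Mx1 (1.73, 0.35 to 3.11, adjusted p = 0.449), Mx2 (2.02, 0.27 to 3.76, adjusted p = 0.529) and Ifitm2 (0.11, 0.0059 to 0.21, adjusted p = 0.597). DESeq2 called none of the 6 genes to which it gave an adjusted p. Only for Ifitm2 did the 3 eGFP libraries all lie above the 3 untreated ones, as 7.96% of all genes did. The median log2 fold change of the 10 genes was 0.54, against 0.0025 over all genes.

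The values of Rsad2, Mx1 and Mx2 rest on eGFP replicate 2, which was the highest of the 6 libraries without IFNβ for 9 of the 10 genes, Ifitm1 being the exception, and for 18.4% of all genes tested. Relative to the mean of the other eGFP libraries it held 8.23 times the Mx2, 6.82 times the Rsad2, 6.52 times the Mx1 and 2.66 times the Isg20 level. The ratio was 1.69 for Ifitm3, 1.499 for Bst2, 1.31 for Ifitm6, 1.18 for Samhd1, 1.10 for Ifitm1 and 1.04 for Ifitm2. The Mx genes and Rsad2 thus stood out most in this library, and Samhd1, Ifitm1 and Ifitm2 least. Measured against the mean of the Ifnb1eGFP libraries, it reached 11.02% for Mx2, 9.51% for Rsad2, 8.34% for Mx1 and 9.50% for Ifitm3, where the other eGFP libraries averaged 1.34%, 1.39%, 1.28% and 5.64%. Without it, the log2 fold changes of eGFP supernatant against untreated control were 0.31 for Rsad2, 0.22 for Mx1, 0.24 for Mx2, 0.0093 for Ifitm3 and 0.090 for Ifitm2. What set this library apart was not tested.

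**Figure D4:**
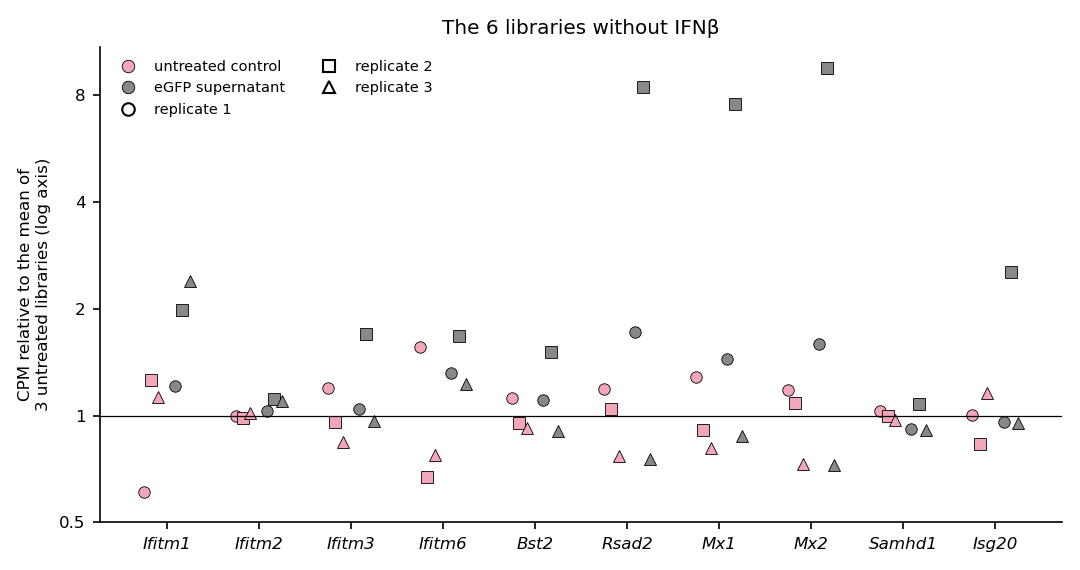
The 6 libraries without IFNβ, plotted as CPM relative to the mean of the 3 untreated libraries on a log axis, for each of the 10 genes; pink symbols are untreated control, gray symbols eGFP supernatant, and shapes give the replicate number. The second eGFP library (gray square) stands far above the others for Rsad2, Mx1, Mx2 and Isg20 and close to them for Ifitm2 and Samhd1.

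Ifnb1eGFP supernatant and rIFNβ, matched in IFNβ concentration, gave levels that overlapped for all 10 genes. Overlap was common beyond them: of the 34 other antiviral effectors described further on, 2 lay wholly above and 3 wholly below with Ifnb1eGFP supernatant. None of the 10 was called by edgeR's quasi-likelihood test, where 0.16% of all genes were, and their smallest adjusted p was 0.613. None of the 10 had an unadjusted p under 0.05, where 8.57% of all genes did. DESeq2 called none of the 6 genes to which it gave an adjusted p. The 95% interval of the log2 difference, Ifnb1eGFP supernatant minus rIFNβ, ran from -0.15 to 0.15 for Samhd1, from -0.015 to 0.19 for Ifitm2, from -0.45 to 0.34 for Ifitm3 and from -0.53 to 0.18 for Bst2. For Ifitm6 it ran from -0.80 to 0.089 and for Isg20 from -0.68 to 0.24. It was wide for Rsad2 (-1.36 to 1.33), Mx1 (-1.35 to 1.08), Mx2 (-1.14 to 0.84) and Ifitm1 (-0.47 to 1.11). A difference of up to 1 log2 unit in either direction was thus within the intervals of Rsad2 and Mx1. These intervals use a spread shared by all conditions, eGFP replicate 2 included, and not that of the compared groups alone. The libraries with IFNβ themselves stood at 2260 to 2638 CPM for Rsad2, 626 to 806 for Mx1 and 75.2 to 95.9 for Mx2. A p that misses the threshold does not show that the sources acted alike.

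Whether the change with IFNβ itself differed between the supernatant pair and the rIFNβ pair was tested as an interaction, and none of the 10 genes was called by edgeR, where 0% of all genes were, and DESeq2 called none of the 7 to which it gave an adjusted p, Rsad2, Mx1 and Mx2 having none. At an unadjusted p under 0.05 there were 3, against 4.4% of all genes: Mx2 (log2 difference of changes -2.17, 95% interval -4.19 to -0.14), Mx1 (-1.87, -3.70 to -0.033) and Ifitm6 (-0.88, -1.69 to -0.060), with adjusted p-values of 0.926 to 0.961 for the 10 genes by edgeR's quasi-likelihood test. Leaving out eGFP replicate 2 brought the difference to -0.39 for Mx2, -0.36 for Mx1 and -0.73 for Ifitm6. Rsad2 went from -1.88 to -0.33. Of these 4 genes, Ifitm6 changed least without that library.

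For each restriction factor the gene with the most similar profile was sought among the genes tested, with the restriction factors themselves left out. Similarity was taken as the smallest root mean square (RMS) difference in gene-centred log2 CPM over the 12 libraries. Mx1 and Mx2 were therefore not compared with each other. The profile includes the response to IFNβ and the level in eGFP replicate 2, which all points share. Isg15, a ubiquitin-like interferon-stimulated protein, was the nearest to Rsad2 (RMS difference 0.270), Mx1 (0.243) and Mx2 (0.263), where the own spread of Mx1 was 3.12. Isg15 itself changed by a log2 fold change of 4.66 with Ifnb1eGFP supernatant and 6.13 with rIFNβ. Cmpk2 was also close to Rsad2, with an RMS difference of 0.293. The nearest gene was Igtp, an immunity-related GTPase, for Ifitm3 (0.128), Tap1, the peptide transporter of antigen presentation, for Bst2 (0.115), and Ifi47, another GTPase of that family, for Isg20 (0.185). Usp25 was nearest to Samhd1 (0.0555), Epb41 to Ifitm2 (0.0457), Ly86 to Ifitm6 (0.250) and Ctla2b to Ifitm1 (0.234), the last against a spread of 0.780 of Ifitm1 itself. Similar profiles of this kind are a description over 12 libraries.

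Other antiviral effectors were taken from a written list of 34 genes, all of which were tested. With Ifnb1eGFP against eGFP supernatant 27 were higher and 2 lower by edgeR's quasi-likelihood test, where 30.1% of all genes were higher and 25% lower. With rIFNβ against untreated control 27 rose and 1 fell, where 30.7% of all genes were higher and 24.6% lower. The median log2 fold change of the list was 1.55 and 1.82, below the 3.34 and 3.96 of the 10 restriction factors, and 12 and 14 passed the stricter call, against 2.77% and 2.99% of all genes. In 27 of the 34 genes all 6 libraries with IFNβ lay above all 6 without it, as in 25.5% of all genes. By the step they act on, 3 of 3 nuclear body proteins, 2 of 2 nucleotide enzymes, 3 of 3 genes acting on assembly and envelope and 6 of 7 genes acting on capsid and reverse transcription were higher in both comparisons. Of 11 genes acting on RNA and translation, 10 were higher in both. Of 8 genes acting on entry, 3 were higher, 1 was lower and 4 were not called in either comparison.

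Among the genes acting on entry, Ly6e, a membrane-anchored protein that hinders fusion of coronaviruses, had the largest rise of the list with Ifnb1eGFP against eGFP supernatant. It stood at 12.8 to 17.4 CPM in untreated BMDM, 17.9 to 28.4 CPM with eGFP supernatant, 1214 to 1339.5 CPM with Ifnb1eGFP supernatant and 1213 to 1334 CPM with rIFNβ. Its log2 fold change was 5.88 with Ifnb1eGFP against eGFP supernatant (edgeR adjusted p = 9.1e-10) and 6.45 with rIFNβ against untreated control (edgeR adjusted p = 4.6e-10). Gbp5, a guanylate-binding protein that impairs maturation of viral envelope proteins, rose by 5.24 (edgeR adjusted p = 1.2e-06) and 7.25 (edgeR adjusted p = 3.3e-07), the latter being the largest value of the list with rIFNβ. Ddx60, a helicase of RNA sensing, rose by 4.26 (edgeR adjusted p = 3.5e-07) and 4.97 (edgeR adjusted p = 1.3e-07).

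Serinc5, a membrane protein that lowers the infectivity of retroviral particles, was lower with IFNβ. It stood at 16.4, 16.9 and 16.4 CPM in untreated BMDM, 17.6, 17.2 and 16.97 with eGFP supernatant, 9.94, 9.09 and 9.08 with Ifnb1eGFP supernatant and 7.57, 7.74 and 8.19 with rIFNβ. All 6 libraries with IFNβ were below all 6 without it. Serinc5 fell by 0.88 on the log2 scale with Ifnb1eGFP against eGFP supernatant (edgeR adjusted p = 1.6e-07) and by 1.08 with rIFNβ against untreated control (edgeR adjusted p = 3.0e-08), while its relative Serinc3 rose by 0.26 and 0.22. Zc3h12a, an RNase that degrades viral and cytokine RNA, was called lower with Ifnb1eGFP against eGFP supernatant (log2 fold change -0.37, edgeR adjusted p = 0.027) and not with rIFNβ against untreated control (-0.035, edgeR adjusted p = 0.838). Its call was lost without eGFP replicate 2 (-0.32, edgeR adjusted p = 0.0899), without eGFP replicate 3 (-0.33, edgeR adjusted p = 0.0819) and without Ifnb1eGFP replicate 1 (-0.28, edgeR adjusted p = 0.0528), and also when the model held no other conditions than these (-0.37, edgeR adjusted p = 0.0646). The genes not called in either comparison were Marchf1, Marchf2 and Marchf8, ubiquitin ligases of membrane proteins, Ch25h, which makes an oxysterol that hinders membrane fusion, and Fv1, which blocks retroviral capsids. Marchf2 was called higher with rIFNβ against untreated control under 2 alternatives, library totals alone (log2 fold change 0.15, edgeR adjusted p = 0.0308) and the replicate block (0.13, edgeR adjusted p = 0.0425). Without eGFP replicate 2, Fv1 was called lower with Ifnb1eGFP than with eGFP supernatant (log2 fold change -1.18, edgeR adjusted p = 0.0282). Fv1 rested on few reads, at 0.152 to 0.354 CPM with IFNβ and 0.171 to 0.581 CPM without it. Ch25h was as low, at 0.126 to 0.475 CPM and 0.0487 to 0.284 CPM.

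**Figure D5:**
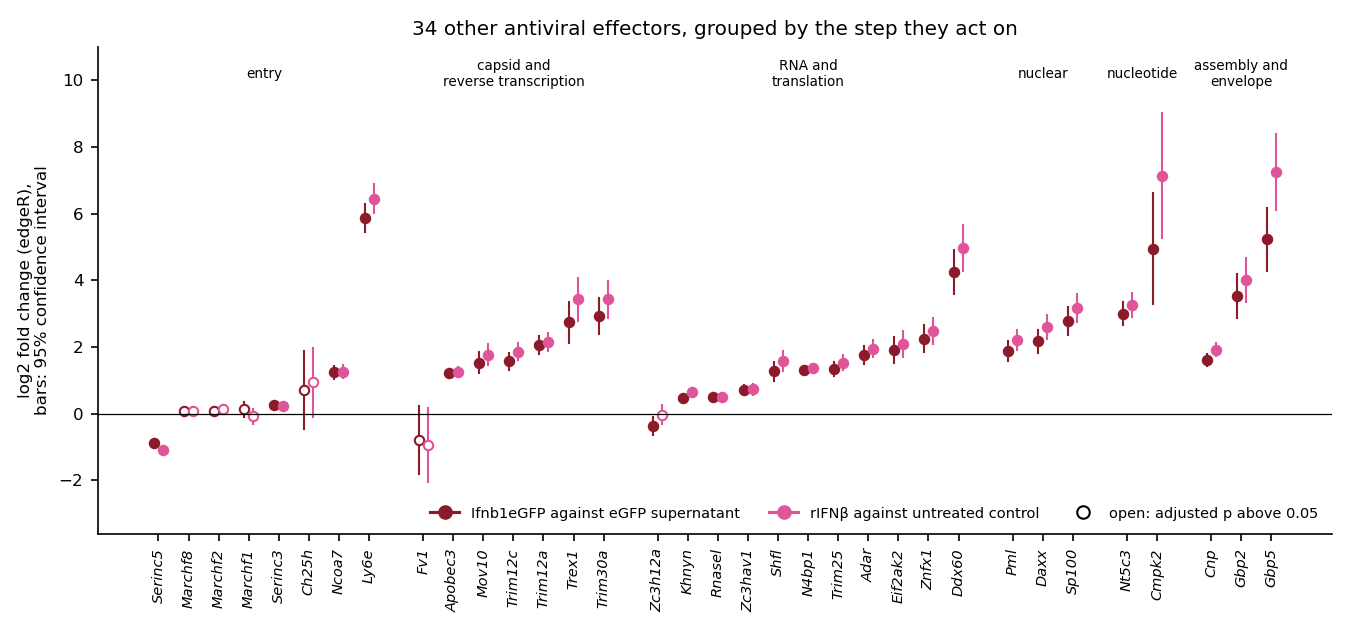
Log2 fold changes of 34 other antiviral effectors with 95% confidence intervals as bars, grouped by the step they act on, for Ifnb1eGFP against eGFP supernatant (dark red) and rIFNβ against untreated control (pink); open symbols mark an adjusted p above 0.05. Ly6e, Gbp5, Cmpk2 and Ddx60 lead, Serinc5 lies below 0 in both comparisons, and the genes acting on entry hold 4 of the 5 genes open in both.

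Of the regulators of the pathway, Irf7, Stat2, Irf1 and Irf9 rose as well. Their log2 fold changes with Ifnb1eGFP against eGFP supernatant and with rIFNβ against untreated control were 6.15 and 7.89 for Irf7, 3.08 and 3.69 for Stat2, 1.71 and 1.69 for Irf1 and 1.4996 and 1.79 for Irf9, with edgeR adjusted p-values of at most 8.4e-06. Stat2 stood at 43.4 to 125 CPM in the 6 libraries without IFNβ, 125 CPM being eGFP replicate 2, and at 637 to 677 CPM in the 6 with it. No library with IFNβ overlapped a library without it for any of these 4 genes.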

How the data were processed

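Strand-specific total RNA libraries were made from 600 ng RNA each. The authors ran RSEM (v1.3.3) on a reference called GRCm39 mm10, a name made of 2 builds, and deposited expected counts per gene. Of all values, 12.0% were not whole, and of the values above 0, 32.0% were not whole. RSEM divides reads that fit several genes. The strand setting and annotation are not given in the sources used here. Expected counts were rounded and analysed in R (v4.3.3). Genes with low counts were removed (filterByExpr), totals were normalized by TMM and 1 model over the 12 libraries was fitted with edgeR (v4.0.16, quasi-likelihood test), with p-values adjusted by Benjamini-Hochberg over 15033 genes and a call at an adjusted p of at most 0.05. SEs came from the F statistic, and intervals cover 95%. Both use a spread estimated per gene over all 12 libraries, so eGFP replicate 2 also enters comparisons that leave out its group. Log2 CPM used a prior count of 2. CPM per kb used exon lengths and positions of GENCODE M39 on GRCm39, in which 56017 of 56748 gene IDs were found, and promoters came from the RefSeq table on GRCm38.p6. The fit was tested on simulated data.

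The genes, lists and tests were chosen with earlier results of these data known. Named beside the 10 restriction factors were, by rule, the 4 largest called rises and falls of the other effectors (2 fell), those with differing calls, Cmpk2, the IFITM relatives, the regulators (1 is not reported here), the exposure markers and each factor's nearest gene; uncalled effectors were added with their values in view. As alternatives, the results were recomputed with DESeq2 (v1.42.0), RLE factors, library totals alone, no filter, a replicate block, fits of the compared conditions only, a stricter call and leaving out each library. Comparisons sharing libraries are given side by side.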

Additional observations from a re-analysis of the deposited data

How the results depend on the processing

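Both IFNβ comparisons kept all 10 restriction factors called under RLE factors, library totals alone, no low-count filter, the replicate block and fits of the compared conditions only. DESeq2 called 6 with Ifnb1eGFP against eGFP supernatant and 7 with rIFNβ against untreated control. In each comparison it gave Rsad2, Mx1 and Mx2 a log2 fold change but no p, adjusted or not, so it left them untested. Their DESeq2 log2 fold changes were 4.58, 4.76 and 4.43 in the first comparison and 6.45, 6.60 and 6.54 in the second. In the first, Ifitm1 missed the threshold (log2 fold change 1.08, DESeq2 adjusted p = 0.0520). The stricter call kept 7 and 7 restriction factors, and 12 and 14 of the other effectors, against 29 and 28 at the adjusted p alone. Leaving out libraries in turn gave 0.82 to 1.32 for Ifitm1 in the first comparison, with the call lost as described. Of the other effectors, DESeq2 called 1 with eGFP supernatant against untreated control (Ly6e, 0.54, DESeq2 adjusted p = 0.0475), and leaving out libraries gave 0 to 1 with Ifnb1eGFP supernatant against rIFNβ (Serinc5 without Ifnb1eGFP replicate 2). Direction turned for some values that were not called. Isg20 with eGFP supernatant against untreated control was 0.56 with all libraries and -0.077 without eGFP replicate 2 (-0.077 to 0.80 over the left-out libraries). The others were near 0: Rsad2 (-0.086 to 0.026) and Samhd1 (-0.030 to 0.038, and -0.0043 with library totals alone) with Ifnb1eGFP supernatant against rIFNβ, and the interaction of Ifitm2 (-0.051 to 0.019). The cause was not tested. Over all genes, eGFP supernatant against untreated control gave 45 calls, 205 with DESeq2, and Ifnb1eGFP supernatant against rIFNβ gave 24, 116 with DESeq2.

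Replicate numbers are shared across conditions, but nothing says what they mark. Deviations of same-numbered libraries correlated at 0.0582 to 0.252, with 13 of 18 pairs above 0.1. Those of differently numbered libraries correlated at -0.318 to 0.147, with 1 of 36 pairs above 0.1. Deviations were taken from the mean of a library's own condition, so positive values of same-numbered pairs pull the other pairs below 0. The differently numbered pairs are therefore not a separate baseline. Same-numbered libraries thus deviated together more often, and what they share was not tested. Because the meaning of the numbers is not stated, they were used only in the replicate block. With the replicate block 10, 10, 0, 0 and 0 restriction factors and 29, 29 (Marchf2 added), 0, 0 and 0 other effectors were called in the 5 comparisons. Depth limits Ifitm1, Fv1, Ch25h and the untested IFITM relatives.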
